A study of Mus musculus with 2 samples.

Results

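The genes described here build, cross-link, bind and break down hyaluronan, and they were chosen by name: Has1, Has2, Ptx3, Tnfaip6, Vcan, Cd44, Cemip, Hmmr and Lyve1, 9 of the 31054 features in the deposited matrices. All 9 had at least 1 unique molecular identifier (UMI, the count of a captured RNA molecule) in both libraries. The cells came from rib repair calluses, the tissue that fills the gap after a large rib resection, dissected from mice at 4 days post injury. The control library held cells of 3 pooled Sox9:CreER;R26:tdTomato;Smo flox/+ animals, and in the Smo cKO library the 3 pooled donors were Smo flox/flox on the same Sox9:CreER;R26:tdTomato background. Both genotypes carry the tamoxifen-inducible Cre driven from Sox9 and the tdTomato reporter, so the groups differ at the second Smo allele. Smo is the membrane component that relays the Hedgehog signal, and it is deleted only in cells that had Sox9:CreER activity at the time of tamoxifen, which was given on consecutive days in the week before surgery. The study used adult mice of both sexes, and the labels do not say which went into each pool.

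Hyaluronan is a long sugar polymer that synthases extrude straight through the cell membrane into the surrounding matrix. In wounds and around the ovulating oocyte, TSG-6 (the product of Tnfaip6), pentraxin 3 (Ptx3) and the proteoglycan versican (Vcan) tie its strands into a soft, hydrated network that cells can enter. Cells hold that network through receptors such as CD44 and clear it through the lysosome or after cleavage by proteins such as CEMIP. A provisional matrix of this kind precedes cartilage in a healing bone.

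After cells with under 200 detected genes or with 10% or more mitochondrial UMIs were left out, 10057 control and 9507 Smo cKO cells remained, with medians of 8367 and 9092 UMIs per cell. Cells were grouped into 19 clusters with the hyaluronan genes kept out of the clustering, and a cluster was named "-like" after a marker list. There was 1 library per genotype, so no test between genotypes was possible. Levels are a gene's UMIs per 1000000 UMIs of the same cells (CPM), differences are log2 ratios of Smo cKO over control, and square brackets give exact 95% Poisson intervals, which cover counting error only and not the spread between animals. CPM was not divided by transcript length, so levels are compared within a gene and not between genes.

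Some facts of the libraries bear on the values. A total of 599 kept barcodes occurred in both libraries, or 5.96% and 6.30% of the libraries, and in 489 of these pairs the deeper cell had at least 10-fold more UMIs than the shallower (medians of 35732 and 641 UMIs over all pairs). A low-depth cluster led by Tnc and Slc39a1 (438 control and 219 Smo cKO cells) held 438 of the shallower cells, 66.7% of its barcodes, whereas 4.02% of all other kept cells carried a shared barcode. That cluster was left unnamed and outside the connective-like class. In the connective-like class 4 cells were the shallow partner of such a pair, and leaving them out gave a Ptx3 ratio of -0.63, the same as with them. Leaving out every shared barcode gave -0.59. A list of 8 dissociation-response genes summed to 1232 CPM in control and 1687 CPM in Smo cKO connective-like cells, and its part in the results was not tested.

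Connective-like cells, named from markers of fibroblasts and related matrix-forming cells, were the main place of the matrix-building genes. This class was made up of 6 clusters, with 6232 control and 5294 Smo cKO cells at medians of 11506 and 13957.5 UMIs. All 10 connective markers were detected in it, summing to 33852 CPM in control and 29498 CPM in Smo cKO. It held 94.8% of the Has1, 94.1% of the Has2 and 94.96% of the Ptx3 UMIs of the control library, where it held 81.3% of all UMIs and 62.0% of the cells. The smaller Slc39a1, Spry2 cluster also passed for 5 of 9 macrophage markers, and with it left out the Ptx3 ratio was -0.64. The macrophage list summed to 159 CPM in control and 203 CPM in Smo cKO over the class. Possible doublets, whose marker score for another broad class was over 50% of their best score, numbered 105 in control and 161 in Smo cKO, and without them the Ptx3 ratio was -0.62. Smo itself measured 18.98 CPM in control and 12.03 CPM in Smo cKO connective-like cells, a log2 ratio of -0.66 [-0.77, -0.54]. The ratio covers every cell of the class, with or without Cre activity, and is not a deletion rate.

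Promoters of Has1, Ptx3 and Tnfaip6, a synthase and a pair of cross-linkers, are shown because theirs were the 3 of 7 member windows that held 1 of the motifs marked here. Each is the RefSeq window on GRCm38.p6 from 250 bases before to 50 bases after the RefSeq gene start, 5′ to 3′ on the gene's strand. Distances are counted from that start, which differs for these 3 genes from the GENCODE start in the gene positions given below. Capitals mark matches on either strand to the cAMP response element TGACGTCA, the AP-1 element TGANTCA or the NF-kB consensus.
Has1 promoter, chr17:17855139-17855438, minus strand: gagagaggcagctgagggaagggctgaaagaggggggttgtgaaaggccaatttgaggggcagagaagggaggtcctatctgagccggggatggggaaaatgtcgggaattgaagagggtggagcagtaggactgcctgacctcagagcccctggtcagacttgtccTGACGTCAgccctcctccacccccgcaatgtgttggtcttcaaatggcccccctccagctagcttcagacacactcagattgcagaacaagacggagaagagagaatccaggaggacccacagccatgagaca
Ptx3 promoter, chr3:66219637-66219936, plus strand: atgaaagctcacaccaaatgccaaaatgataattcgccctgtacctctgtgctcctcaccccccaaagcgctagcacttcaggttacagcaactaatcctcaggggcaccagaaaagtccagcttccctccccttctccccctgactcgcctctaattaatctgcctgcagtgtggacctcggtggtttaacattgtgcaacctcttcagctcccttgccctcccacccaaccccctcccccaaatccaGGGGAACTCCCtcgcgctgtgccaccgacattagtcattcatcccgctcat
Tnfaip6 promoter, chr2:52037863-52038162, plus strand: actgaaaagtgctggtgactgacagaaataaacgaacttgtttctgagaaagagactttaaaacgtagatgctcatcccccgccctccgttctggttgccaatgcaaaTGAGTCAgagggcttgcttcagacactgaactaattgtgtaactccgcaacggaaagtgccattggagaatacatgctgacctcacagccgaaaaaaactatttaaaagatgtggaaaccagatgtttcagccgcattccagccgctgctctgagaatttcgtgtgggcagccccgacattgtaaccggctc
The Has1 match is the cAMP response element TGACGTCA, whose first base lies 83 bases before the start, and 1.79% of 32817 RefSeq promoter windows of this length held that motif. The Tnfaip6 match is the AP-1 element TGAGTCA, 142 bases before the start, a motif held by 7.81% of the windows. In Ptx3 overlapping NF-kB matches cover the start itself, and 4.50% of the windows held a match. Among the 7 members with a window, each of these motifs occurred in 1. The Hedgehog effector motif GACCACCCA occurred in 0 of the 7 and in 0.253% of all windows, which says only that these letters are not in these windows. No window was given for Has2 and Lyve1.

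Hyaluronan synthases come first. Has1 and Has2 are membrane enzymes that join the sugar precursors into the polymer, and Has2 is the synthase that mouse embryos cannot survive without. In connective-like cells Has1 (chr17:17843323-17855205, minus strand, GRCm38) measured 47.2 CPM [45.8, 48.7] in control and 55.1 CPM [53.5, 56.7] in Smo cKO, a log2 ratio of 0.22 [0.16, 0.28]. Has2 (chr15:56665627-56694539, minus strand) measured 37.7 CPM in control and 29.8 CPM in Smo cKO, a log2 ratio of -0.34 [-0.41, -0.26]. The synthases thus differed between the libraries in opposite directions, each beyond its counting error and neither by 2-fold.

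The class with the highest Has1 level was not connective. A cluster with epithelial or mesothelial markers, led by Lgals7 and Upk3b, measured 191 CPM [133, 266] in its 20 control cells and 217 CPM [181, 259] in its 44 Smo cKO cells. Its Has1 interval lay above that of the connective-like class as a whole in both libraries. The connective-like cluster with the most Has1, led by Serpinb2 and Dlk1 and given below, was not compared on its own. Has2 in the same cells was detected with 0 UMIs in control and 1 UMI in Smo cKO. This cluster also held the highest class level of Gfpt2 (524 CPM, control) and Uap1 (478 CPM, Smo cKO), enzymes of the pathway to the amino sugar of hyaluronan, and of Ugdh (277 CPM, Smo cKO), which makes its glucuronate precursor.

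Of the 5 connective-like clusters found in both libraries, the same one was highest and the same one lowest for Has1 and Has2. The largest cluster, led by Sfrp1, Sfrp4, Col14a1 and Eln (2597 control and 1307 Smo cKO cells), measured 73.1 and 76.9 CPM of Has1. The cluster led by Ibsp and Fmod, genes of bone and tendon matrix, was lowest of the 5, with 16.9 and 24.7 CPM. Clusters between them, led by Tnc and Inhba, by the cycling genes Hist1h2ap and Prc1, and by Slc39a1 and Spry2, measured 40.0 to 43.5 CPM in control and their intervals overlapped. Has2 ran from 61.7 CPM in the Sfrp1, Sfrp4 cluster to 20.7 CPM in the Ibsp, Fmod cluster of the control library, and the clusters between them measured 28.9 to 32.1 CPM with intervals that overlapped. The Has1 ratio was above 0 in all 5 clusters and its interval excluded 0 in 3 of them, with the largest value in Ibsp, Fmod cells (0.55 [0.25, 0.85]). The Has2 ratio was -0.71 [-0.86, -0.57] in the Sfrp1, Sfrp4 cluster (61.7 to 37.6 CPM) and between -0.32 and 0.09 in the other 4.

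**Figure D1:**
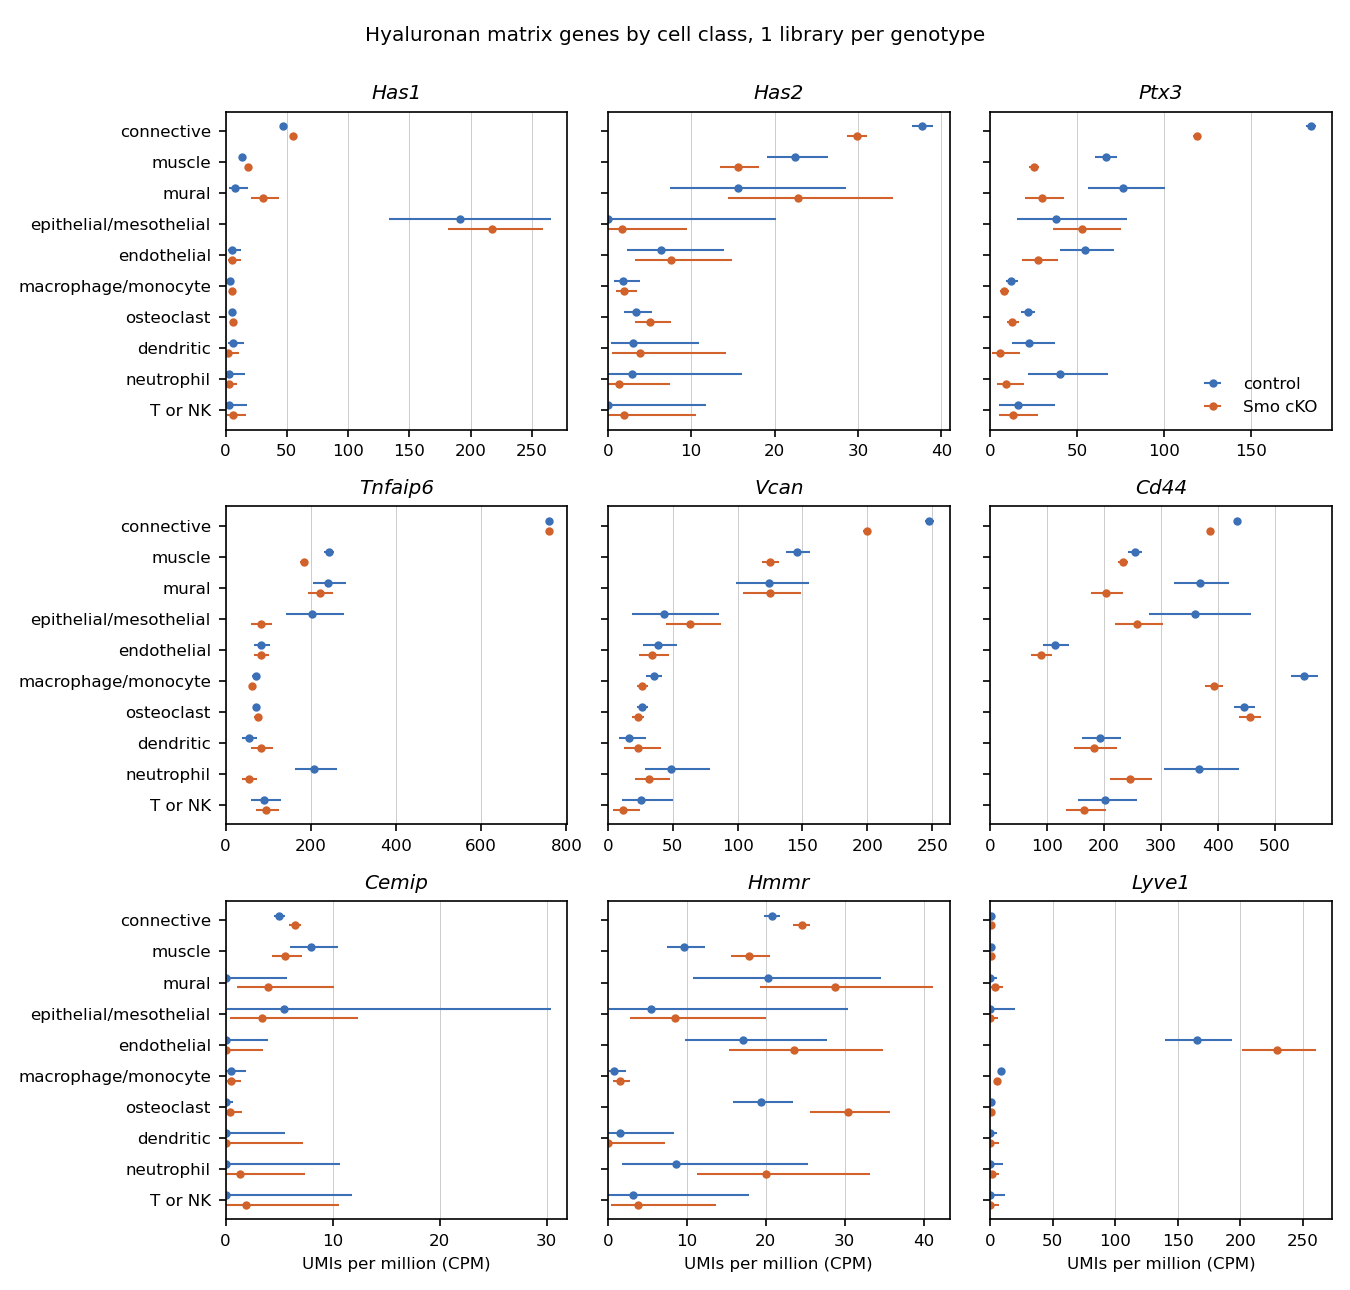
Each panel plots 1 gene, with its level in CPM on the horizontal axis and the cell classes, each named from markers, on the vertical axis. Blue points are the control library, orange points the Smo cKO library, and bars are exact 95% Poisson intervals. Has1 was highest in epithelial- or mesothelial-like cells (191 and 217 CPM), Lyve1 in endothelial-like cells (165 and 230 CPM), and Tnfaip6 in connective-like cells (759 and 760 CPM).

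Cross-linkers come next. Ptx3 (chr3:66219910-66225805, plus strand), a secreted pentraxin that binds TSG-6 and heavy chains in the matrix, measured 184 CPM in control and 119 CPM in Smo cKO connective-like cells, a log2 ratio of -0.63 [-0.67, -0.60]. Only 45 of the 5171 genes with at least 20 CPM in these cells had a lower ratio. Tnfaip6 (chr2:52038009-52056686, plus strand), which transfers heavy chains onto hyaluronan, measured 759 CPM and 760 CPM, a log2 ratio of 0.00 [-0.01, 0.02]. Vcan (chr13:89655312-89742509, minus strand), whose head domain binds the polymer, measured 248 CPM and 200 CPM, a log2 ratio of -0.31 [-0.34, -0.28].

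None of these differences reached 2-fold. Of the 9 members, 7 had at least 20 CPM in connective-like cells (all but Cemip and Lyve1), and the number past 2-fold was 0 on the higher and 0 on the lower side, where 0.793% and 0.174% of the 5171 genes passed. The median log2 ratio of the 7 was -0.16, against 0.03 over all genes. In macrophage- or monocyte-like cells 3 of the 9 had at least 20 CPM, and again 0 were 2-fold higher and 0 lower, beside 1.23% and 0.349% of 4873 genes. Shares this small leave a count of 0 of 7 or of 3 members near the background. UMIs of the 7 ran from 1759 to 64248 in the control connective-like cells, whereas the 6 members left out in macrophage- or monocyte-like cells had 2 to 46 UMIs in control. Animals were pooled and their spread is not known.

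The equal Tnfaip6 totals held unequal parts. In the Sfrp1, Sfrp4 cluster Tnfaip6 measured 845 CPM in control and 472 CPM in Smo cKO, a log2 ratio of -0.84 [-0.88, -0.80]. In the Tnc, Inhba cluster it measured 972 and 1027 CPM, a ratio of 0.08 [0.05, 0.11], and in cycling cells 681 and 680 CPM. A sixth connective-like cluster, led by Serpinb2 and Dlk1, had 0 control and 121 Smo cKO cells and measured 3021 CPM of Tnfaip6, 663 CPM of Ptx3, 170 CPM of Has1 and 796 CPM of Cd44, the highest of any connective-like cluster for each of the 4 genes. With these 121 cells left out the connective-like Tnfaip6 ratio was -0.11, the Ptx3 ratio -0.81 and the Has1 ratio 0.14. A cluster of 1 library may be that library and not a cell type, and these cannot be told apart here.

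Ptx3 differed between clusters in both size and direction. It measured 492 CPM in control and 269 CPM in Smo cKO cells of the Sfrp1, Sfrp4 cluster, a log2 ratio of -0.87 [-0.93, -0.82]. In the Tnc, Inhba cluster the libraries stood the other way, with 61.1 and 77.1 CPM (0.33 [0.23, 0.44]). Ibsp, Fmod cells measured 38.04 and 26.1 CPM (-0.54 [-0.79, -0.30]) and cycling cells 75.4 and 69.0 CPM (-0.13 [-0.21, -0.04]). At 5000 UMIs per cell, 37.8% of control and 25.4% of Smo cKO connective-like cells held a Ptx3 UMI, and the 10% of cells with the most Ptx3 held 63.3% and 75.7% of its UMIs. For Has2 that share was 66.8% and 79.3%, from a UMI in 16.8% and 13.1% of cells. Tnfaip6 had a UMI in 82.5% and 74.9% of the cells and 34.4% and 42.3% of UMIs in the top 10% of cells. These shares depend on the mean UMIs per cell, which were 0.206 and 0.151 for Has2, 1.24 and 0.717 for Ptx3 and 3.88 and 3.76 for Tnfaip6. They therefore do not rank the genes by how evenly cells express them.

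The size of the differences in the Sfrp1, Sfrp4 cluster varied with how finely cells were divided. At a resolution of 0.8 in place of 0.4 its cells fell mainly into a part led by Cxcl12 and Cyp1b1, with 88.1% of its control and 39.3% of its Smo cKO cells, and a part led by Sfrp1, Sfrp4 and Cilp, with 11.6% and 59.1%. Within the Cxcl12 part Ptx3 measured 510 and 462 CPM (-0.14 [-0.21, -0.07]), and within the Sfrp1 part 389 and 188 CPM (-1.05 [-1.15, -0.95]). Tnfaip6 measured 884 and 678 CPM in the Cxcl12 part (-0.38) and 610 and 379 CPM in the Sfrp1 part (-0.69). Both genes were therefore lower in Smo cKO in each part, and the Smo cKO cells lay mostly in the part where both were lower. Has2 measured 64.9 and 52.1 CPM in the Cxcl12 part (-0.32 [-0.53, -0.12]) and 42.2 and 31.9 CPM in the Sfrp1 part (-0.40 [-0.69, -0.11]). Both Has2 ratios were nearer to 0 than the -0.71 of the undivided cluster. Has1 went opposite ways, 73.1 and 115 CPM in the Cxcl12 part (0.65 [0.50, 0.80]) and 73.5 and 61.2 CPM in the Sfrp1 part (-0.27 [-0.48, -0.05]). With the 5 connective-like clusters weighted alike in both libraries, the ratios were -0.54 for Ptx3, -0.15 for Tnfaip6, -0.28 for Has2 and 0.22 for Has1.

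**Figure D2:**
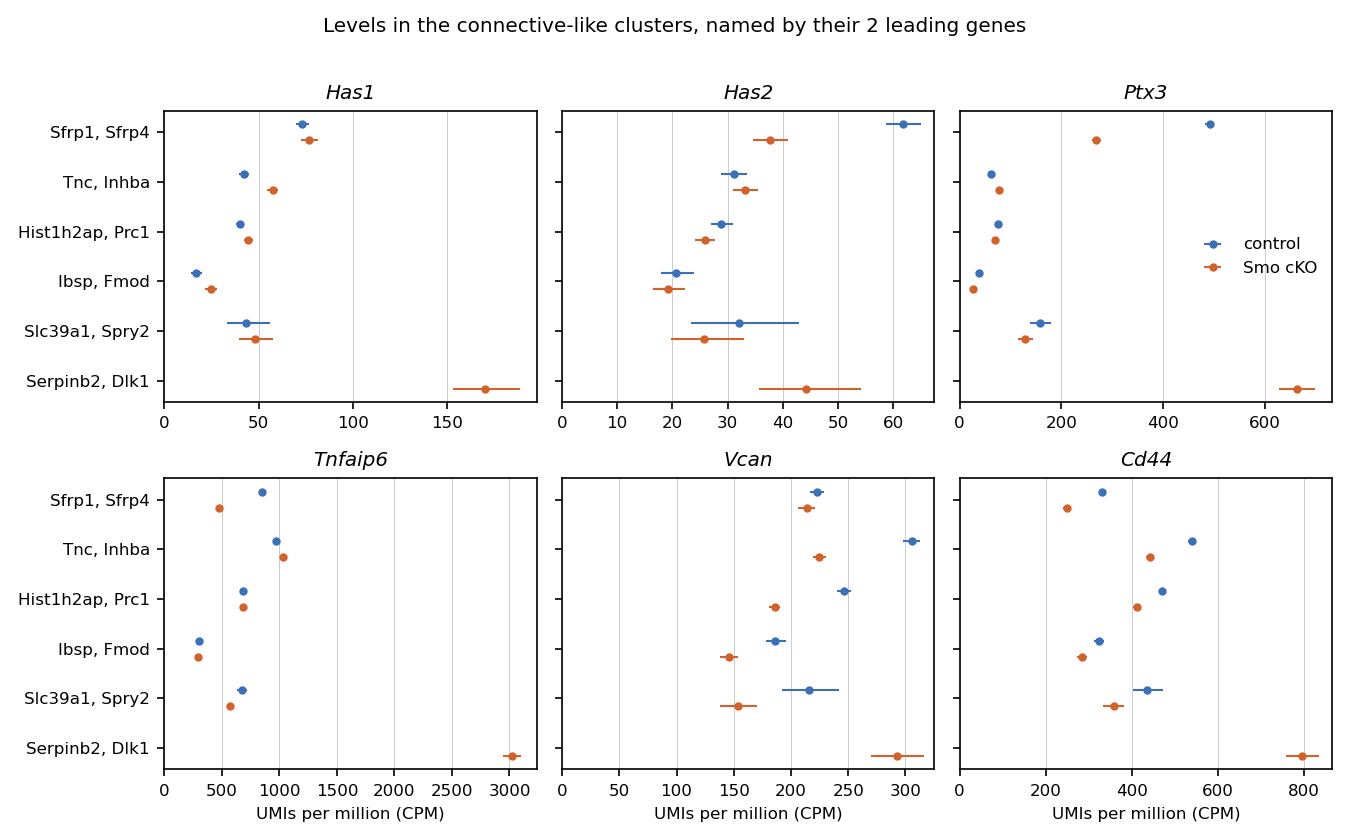
Levels of 6 members in CPM (horizontal axis) in the 6 connective-like clusters (vertical axis, each called by its 2 leading genes). Blue is the control library, orange the Smo cKO library, and bars are exact 95% Poisson intervals. The Serpinb2, Dlk1 cluster has no control point because it held 0 control cells, and its Tnfaip6 level was 3021 CPM.

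Vcan and Cd44 had ratios below 0 in all 5 clusters shared by both libraries. Vcan ratios lay between -0.49 and -0.36 in 4 of the 5 clusters shared by both libraries, and in the Sfrp1, Sfrp4 cluster the libraries measured 223 and 214 CPM (-0.06 [-0.12, 0.00]). Cd44 (chr2:102811141-102901665, minus strand), the main cell-surface receptor for hyaluronan, measured 432 and 386 CPM over all connective-like cells (-0.16 [-0.19, -0.14]), with ratios from -0.41 to -0.19 in all 5 clusters. The finer division of the Sfrp1, Sfrp4 cluster gave unequal parts for both genes. For Vcan the ratio was 0.05 [-0.05, 0.15] in the Cxcl12 part and -0.34 [-0.45, -0.22] in the Sfrp1 part. For Cd44 it was -0.11 [-0.20, -0.03] and -0.40 [-0.51, -0.29]. Vcan was highest in Tnc, Inhba cells in control (306 CPM) and so was Cd44 (540 CPM), whereas Has2 and Ptx3 were highest in Sfrp1, Sfrp4 cells.

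**Figure D3:**
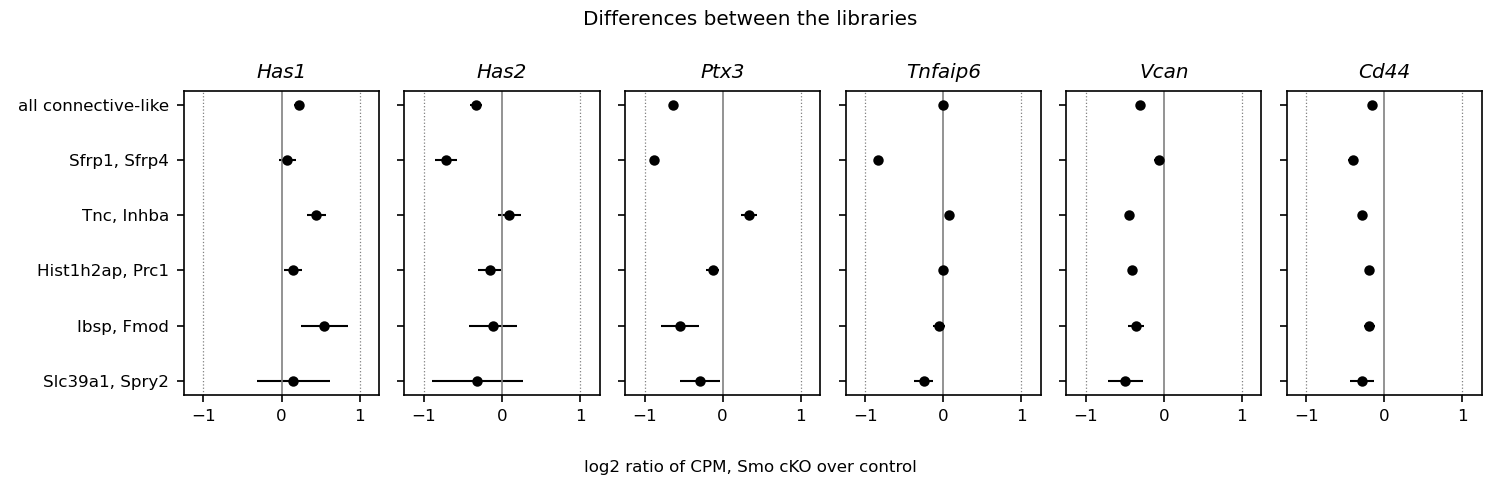
Log2 ratio of CPM, Smo cKO over control, for 6 members (panels) in all connective-like cells and in the 5 clusters present in both libraries (rows). Bars are exact 95% Poisson intervals, the solid line marks no difference and dotted lines mark 2-fold. Ptx3 stood at -0.87 in the Sfrp1, Sfrp4 cluster and at 0.33 in the Tnc, Inhba cluster, and Cd44 lay left of the solid line in each row.

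Outside connective tissue the receptor Cd44 was spread over blood-derived cells. Macrophage- or monocyte-like cells measured 550 CPM in control and 393 CPM in Smo cKO (-0.48 [-0.57, -0.40]), where the median gene stood at -0.08. Osteoclast-like cells, marked by Acp5 and Mmp9, measured 446 and 456 CPM (0.03 [-0.05, 0.12]). T- or NK-like cells had 202 and 166 CPM and endothelial-like cells 114 and 88.8 CPM, the lowest of the plotted classes. Besides Lyve1, Cd44 was the only member with a higher level in macrophage- or monocyte-like than in connective-like cells of both libraries, by 550 against 432 CPM in control but by 393 against 386 CPM in Smo cKO.

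Levels in lymphocyte- and neutrophil-like cells were taken as a reference for free RNA. Whether those cells make some of these genes themselves was not tested, so the reference is not a sure floor. In lymphocyte- and neutrophil-like cells together, Ptx3 measured 28.8 CPM in control and 11.004 CPM in Smo cKO, Tnfaip6 152 and 71.5 CPM, Vcan 38.0 and 23.6 CPM, and Has1 3.04 and 3.93 CPM. Macrophage- or monocyte-like cells lay at or below these values for Ptx3 (12.2 and 8.11 CPM), Tnfaip6 (71.2 and 62.0 CPM) and, in control, Vcan (35.5 CPM). Whether they are a source of these genes was not tested. Neutrophil-like cells measured 208 CPM of Tnfaip6 in control (72 UMIs) and 54.9 CPM in Smo cKO (41 UMIs), and as part of the reference they carry that difference into it, since T- or NK-like cells had 89.6 and 95.1 CPM.

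For Ptx3 and Tnfaip6 muscle-like cells lay between connective-like cells and the free-RNA reference, and for Ptx3 so did mural-like cells. Muscle-like cells measured 66.6 and 25.2 CPM of Ptx3, a log2 ratio of -1.40 [-1.62, -1.19], and 243 and 184 CPM of Tnfaip6 (-0.40 [-0.50, -0.31]). Mural-like cells, the pericytes and smooth muscle around vessels, had 76.2 and 29.7 CPM of Ptx3 (-1.36 [-2.07, -0.68]) from 49 and 30 UMIs. In these classes and in the free-RNA reference (-1.39 [-2.50, -0.32]) Ptx3 was lower in Smo cKO by more than in connective-like cells, although the reference interval includes the connective-like value, and the part of free RNA in the differences was not tested. Vcan in muscle-like cells was 146 and 125 CPM, above the reference. The connective marker list summed to 17437.5 and 13548.5 CPM in muscle-like and 18174 and 23735 CPM in mural-like cells. In the reference it was lower, with 2068 and 2206 CPM in T- or NK-like and 5163 and 2689 CPM in neutrophil-like cells. The part of connective RNA in the muscle-like and mural-like levels was not tested.

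Hmmr (chr11:40701395-40733422, minus strand), a hyaluronan-binding protein that also sits on the mitotic spindle, followed the cell cycle. Cells with at least 3 of 7 cycling genes detected (Mki67, Top2a, Cdk1, Ube2c, Tpx2, Aurka, Ccnb1) numbered 1441 in control and 1583 in Smo cKO connective-like cells, with 50.7 CPM [48.3, 53.3] and 49.4 CPM [47.2, 51.7] of Hmmr. The remaining cells had 3.19 and 4.50 CPM. Cycling cells were deeper, with medians of 20706 and 22147 UMIs against 9796 and 11404, and held 90.3% and 89.8% of the connective-like Hmmr UMIs. Over all connective-like cells Hmmr measured 20.8 and 24.5 CPM (0.24 [0.15, 0.33]), and the cycling share of cells was 23.1% and 29.9%. That share was counted at full depth, and Smo cKO cells were deeper. At 1000 UMIs per cell, 4.26% of control and 5.29% of Smo cKO connective-like cells had at least 2 of the 7 cycling genes. Within the cluster of cycling cells the Hmmr ratio was 0.08 [-0.02, 0.18]. Osteoclast-like cells showed the same split, with 51.6 and 59.1 CPM in cycling and 5.07 and 9.18 CPM in other cells.

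Lyve1 (chr7:110850607-110863239, minus strand), the receptor by which lymphatic vessels take up hyaluronan, marked a small endothelial-like cluster. This cluster was led by Ccl21a and Cldn5, and its 36 control and 43 Smo cKO cells measured 440 CPM (130 UMIs) and 566 CPM (232 UMIs). Endothelial-like cells led by Emcn and Fabp4 had 38.9 CPM (25 UMIs) and 16.96 CPM (11 UMIs). In macrophage- or monocyte-like cells the level was 8.74 and 5.29 CPM, from 22 and 17 cells with a UMI. Those 22 and 17 cells also had more Cbr2 (427 and 358 CPM against 42.3 and 51.9 CPM in the other macrophage- or monocyte-like cells), Folr2 (263 and 268 against 47.1 and 76.6 CPM) and F13a1 (755 and 841 against 260 and 218 CPM), genes of resident tissue macrophages. From the same list of 8 genes Timd4 had 1 and 0 UMIs in them, and Pf4 stood higher in control (7268 against 5513 CPM) but lower in Smo cKO (5472 against 6168 CPM). Of 5 lymphatic genes, Flt4 and Mmrn1 had 0 UMIs in these cells of both libraries, and Ccl21a had 0 and 1 UMI. Prox1 had 2 UMIs in the 22 control cells against 0 in the other control cells and 0 UMIs in the 17 Smo cKO cells, and Pdpn measured 131 against 164 CPM in control and 393 CPM [247, 596] against 156 CPM [146, 166] in Smo cKO. Connective-like cells had 0.614 and 0.767 CPM of Lyve1.

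**Figure D4:**
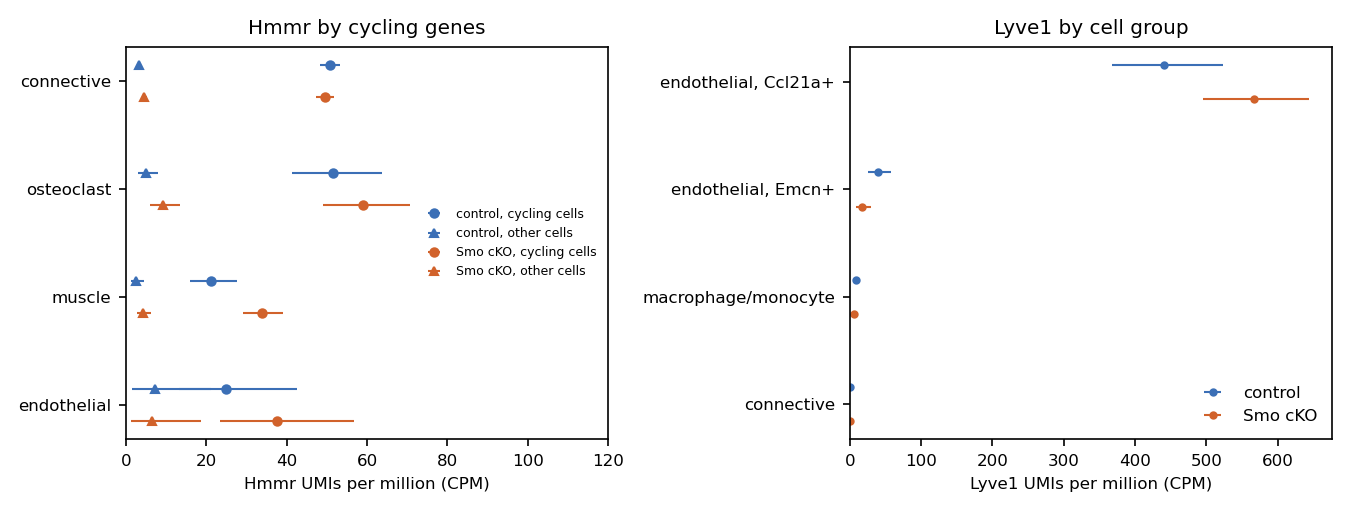
Left, Hmmr in CPM in cells with at least 3 of 7 cycling genes (circles) and in the other cells (triangles) of 4 classes. Right, Lyve1 in CPM in a pair of endothelial-like clusters, macrophage- or monocyte-like cells and connective-like cells. Blue is control, orange Smo cKO, and bars are exact 95% Poisson intervals. Cycling connective-like cells sat at 50.7 and 49.4 CPM of Hmmr against 3.19 and 4.50 CPM, and Lyve1 reached 440 and 566 CPM only in the Ccl21a cluster.

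Cemip (chr7:83932857-84086502, minus strand), which cleaves hyaluronan outside the lysosome, measured 5.02 and 6.47 CPM in connective-like cells, from 425 and 540 UMIs (0.37 [0.18, 0.55]). The Ibsp, Fmod cluster held 15.2 and 15.02 CPM, while the other connective-like clusters held 1.43 to 6.12 CPM. Muscle-like cells had 8.001 and 5.59 CPM. At 1000 UMIs per cell a Cemip UMI was found in 0.435% of control and 0.455% of Smo cKO connective-like cells.

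Has1 and Ptx3 were detected in the same control cells more often than independence gives. At 1000 UMIs per cell, Has1 was detected in 8.65% [7.02, 10.5] of control connective-like cells with a Ptx3 UMI and in 4.32% [3.78, 4.91] of those without, intervals here being exact binomial. The values in Smo cKO were 7.47% [5.41, 10.0] and 4.82% [4.23, 5.47], which overlap. Within the Sfrp1, Sfrp4 cluster, where both genes were high, Has1 was again detected more often with a Ptx3 UMI in both libraries, with intervals that overlapped. The values were 9.56% [7.65, 11.8] against 6.53% [5.42, 7.79] in control and 11.3% [7.72, 15.9] against 7.38% [5.87, 9.14] in Smo cKO. Overlap of intervals does not show that the genes were independent. Ptx3 itself was detected in 21.3% of control cells with and 13.4% without a Tnfaip6 UMI, and in 13.9% and 8.08% of Smo cKO cells. Within the Sfrp1, Sfrp4 cluster the intervals for Ptx3 and Tnfaip6 stayed apart, 37.1% [34.5, 39.8] against 27.5% [25.1, 30.1] in control and 29.3% [25.04, 33.9] against 14.96% [12.7, 17.5] in Smo cKO. For Has1 and Has2 together the Smo cKO cells showed 5.91% [2.99, 10.3] against 5.07% [4.48, 5.70], which overlap. Has2 and Cd44 were near independence, with 4.88% against 4.38% in control and 3.56% against 3.51% in Smo cKO.

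Across 28 groups of at least 50 cells (classes and connective-like clusters in each library), Pearson's r of log2(CPM + 10) was 0.93 for Has1 and Tnfaip6, 0.92 for Has1 and Has2, 0.86 for Has1 and Ptx3 and 0.85 for Ptx3 and Tnfaip6. Vcan stood at 0.95 with Has2, 0.92 with Tnfaip6, 0.86 with Has1 and 0.78 with Ptx3. The epithelial- or mesothelial-like class, with 20 control and 44 Smo cKO cells, fell under the limit of 50 cells and is not among the groups. In that class Has1 was highest and Has2 nearly absent, as given above, so these values do not cover it. Groups share libraries and clusters share a class, so these values describe and carry no test. The genes most like each member were Dpt, Il33 and Osr1 for Has1 (r from 0.95 to 0.96), Ugdh, Bicc1 and Loxl1 for Has2 (0.96 to 0.97), Gfpt2, Clec3b and Osr1 for Ptx3 (0.91 to 0.94), and Fgf7, Dpt and Twist2 for Tnfaip6 (0.95 to 0.96). Vcan went with Gpr153, Col3a1 and Col1a2 (0.96 to 0.97), Cd44 with Magt1, Pgd and Pgam1 (0.86), and Cemip with the tendon factor Scx and C1qtnf3 (0.87). Hmmr went with Ccnb1, Tpx2 and Cdk1 (0.95 to 0.96) and Lyve1 with Rapgef5, Podxl and Cdh5 (0.98 to 0.99).

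Cells with a tdTomato UMI, the reporter of Sox9:CreER recombination, were few. The reporter was detected in 47 control and 115 Smo cKO connective-like cells (0.754% and 2.17%), beside 0.295% and 0.397% of hematopoietic-like cells, whose medians of 2668 and 3151 UMIs were lower than the 11506 and 13957.5 of the connective-like cells. In these cells Tnfaip6 measured 833 CPM [768, 901] and 605 CPM [575, 637] (-0.46 [-0.60, -0.32]) and Vcan 255 and 202 CPM (-0.34 [-0.58, -0.09]). Ptx3 measured 119 and 122 CPM (0.03 [-0.31, 0.39]) there, against 185 and 119 CPM in connective-like cells with no tdTomato UMI (-0.64 [-0.68, -0.60]). A cell with no reporter UMI may still be recombined, and a cell with a reporter UMI may hold it as free RNA. How many of the 47 and 115 cells were recombined was not tested.

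A list of 44 other hyaluronan genes adds the precursors, proteoglycans and degrading enzymes. In connective-like cells 18 of the 44 had at least 20 CPM, the number past 2-fold was 0 on either side (0.793% higher and 0.174% lower over all genes, so a count near 0 is the background), and their median log2 ratio was -0.02. Acan, the cartilage proteoglycan that binds hyaluronan, stood lowest of the 18, with 72.3 and 44.1 CPM (-0.71 [-0.77, -0.66]), and the versican-cleaving protease Adamts4 highest, with 41.0 and 57.8 CPM (0.50 [0.43, 0.56]). Adamts1, of the same family, measured 161 and 195 CPM (0.28 [0.25, 0.31]), whereas Adamts5 measured 64.0 and 54.4 CPM (-0.23 [-0.29, -0.18]). Below 20 CPM, the lectican Bcan had 84 and 30 UMIs (0.99 and 0.36 CPM), a log2 ratio of -1.46 [-2.12, -0.85], and was chosen after its values were seen. It lies outside the naming rule of 50 CPM. The share of genes at so low a level that passed 2-fold was not taken, so its ratio has no background beside it. Among the precursor enzymes Ugdh measured 223 and 211 CPM (-0.08 [-0.11, -0.05]) and Gfpt1 69.7 and 70.4 CPM (0.01 [-0.04, 0.07]). Uap1 measured 109 and 124 CPM (0.18 [0.14, 0.22]) and Gfpt2 118 and 105 CPM (-0.17 [-0.21, -0.13]). In macrophage- or monocyte-like cells 14 of the 44 had at least 20 CPM and 0 passed 2-fold in either direction (1.23% higher and 0.349% lower over all genes). Stab1, a scavenger receptor (172 and 153 CPM), and Tlr2, an innate immune receptor (193 and 174 CPM), were at their highest class level there.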

How the data were processed

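The authors processed the reads with Cell Ranger 3.0.2 on mm10, per the labels, and deposited raw UMI counts per gene and cell for 10747 control and 10512 Smo cKO barcodes. These counts were used as deposited. Here cells with at least 200 detected genes and under 10% mitochondrial UMIs were kept. Both libraries were merged without integration and clustered in Seurat 5.3.0 (R 4.3.3) on 2000 variable genes, leaving out the 9 members and 44 other hyaluronan genes, with 30 principal components at a resolution of 0.4. A cluster took a class name where at least 3 markers of its list were detected in at least 10% of its cells and exceeded 1.5-fold of their mean level elsewhere, and stayed unnamed where its depth was low. The 9 members are named in every class, leading genes are the 4 with the highest fold, and other hyaluronan genes, except Bcan, are named at 50 CPM or more in a class. UMIs were summed by class and library. Shares of cells with a UMI of a member were compared after thinning each cell to 1000 UMIs (5000 UMIs where stated). The shares of cells with at least 3 cycling genes and with a tdTomato UMI were not thinned, and connective-like cells were deeper in Smo cKO. A difference of 2-fold with at least 10 UMIs was counted, beside the genes at 20 CPM or more. With 1 library per genotype no test was run. Intervals and the 2-fold rule were tested on simulated data. No doublet caller was run. Members and lists were chosen with earlier results of these data known. The study kept cells with at most 2000 genes, which is an alternative here. Of the cells kept here, 58.0% in control and 59.4% in Smo cKO had more than 2000 genes. Connective-like cells numbered 11526 here and 1990 with the limit of the study. The genome build of the positions is GRCm38, from GENCODE. Some genes that these rules select are not reported here.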

Additional observations from a re-analysis of the deposited data

Results flagged for a closer look

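Ptx3 had a log2 ratio of 0.33 (Smo cKO over control) in the Tnc, Inhba cluster and -0.87 in the Sfrp1, Sfrp4 cluster, so the libraries stood in opposite order in a pair of connective-like clusters with intervals that excluded 0. The difference between the clusters was not tested, since there was 1 library per genotype.

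Matrix genes were also counted in clusters that no class name covers. The low-depth cluster led by Tnc and Slc39a1, whose barcodes were mostly shared with deep cells of the other library, measured 47.6 CPM of Has1, 22.2 CPM of Has2, 77.8 CPM of Ptx3, 622 CPM of Tnfaip6 and 241 CPM of Vcan over both libraries. Lymphocyte- and neutrophil-like cells, the reference for free RNA, measured 3.62, 1.55, 17.1, 98.9 and 28.5 CPM of the same genes. A cluster led by Siglech and Cox6a2 (54 control and 39 Smo cKO cells) measured 40.4 CPM of Has1, 180 CPM of Ptx3 and 315 CPM of Tnfaip6. This cluster also carried connective markers, whose list reached 15376 CPM in its control and 7351 CPM in its Smo cKO cells. The same list gave 2068 and 2206 CPM for T- or NK-like, and 5163 and 2689 CPM for neutrophil-like cells. How much of its Has1, Ptx3 and Tnfaip6 came from connective RNA or doublets was not tested.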

How the results depend on the processing

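The counts of members at least 2-fold apart, 0 in both classes, stayed at 0 except in 3 settings. With at most 2000 detected genes per cell, 2 members passed in connective-like cells (Cemip and Hmmr, both higher in Smo cKO, in 1990 cells). In macrophage- or monocyte-like cells 1 member passed with 15 principal components (Ptx3) and 1 with at least 1000 UMIs per cell (Hmmr). These counts asked for at least 10 UMIs and not for 20 CPM. In the main setting Cemip in connective-like cells, and Ptx3 and Hmmr in macrophage- or monocyte-like cells, lay below 20 CPM. The share of all genes past 2-fold was not taken in these settings, so the counts have no background beside them. Over 17 alternatives the connective-like Ptx3 ratio lay between -0.81 and -0.54, that of Has2 between -0.65 and -0.28, Vcan between -0.34 and -0.04 and Has1 between 0.14 and 0.23. Tnfaip6 lay between -0.28 and 0.02, below 0 in 4 of the 17. The ends at -0.65 for Has2, -0.04 for Vcan, 0.23 for Has1 and -0.28 for Tnfaip6 came from the limit of 2000 detected genes per cell, which the study used. In the cells that best matched the Sfrp1, Sfrp4 cluster in each of 15 alternatives Ptx3 lay between -1.08 and -0.14 and Tnfaip6 between -0.85 and -0.28. Has2 lay between -0.73 and -0.33 there. The Ptx3 value of -0.14 and the Has2 value of -0.33 came at a resolution of 0.8, where the best match was the part led by Cxcl12 and Cyp1b1. The Tnfaip6 value of -0.28 came from marker gates on single cells and not from a cluster. No paired analysis was possible because each genotype has 1 library and the labels carry no replicate numbers. The alternatives on shared barcodes, on single clusters and on the cluster mix were chosen after seeing the data. Low-count members (Cemip, Lyve1) outside their highest class are limited by depth.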
